A study of Mus musculus with 2 samples.

Results

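The genes described here carry out MHC class I antigen processing, and their levels in mouse intestinal cells were set side by side for circBtnl1 wild-type and knockout RNA. They are 10 genes taken by their symbol from a deposited table of 18067 genes: the classical heavy chains H2-K1 and H2-D1, the light chain B2m, the peptide transporter genes Tap1 and Tap2, tapasin (Tapbp), the immunoproteasome subunits Psmb8, Psmb9 and Psmb10, and the transactivator Nlrc5. All 10 were in the table, and all 10 passed the floor of 1 TPM on the mean of the libraries, as did 12666 genes in all, called measured here. TPM is a length-corrected share of a library's transcripts, so it allows levels of different genes to be set side by side.

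Class I molecules sit on nearly all nucleated cells and show fragments of the cell's own proteins to CD8+ T cells. The fragments are cut by the proteasome, pumped into the endoplasmic reticulum by the Tap1-Tap2 transporter, and loaded by tapasin and its partners onto a heavy chain paired with beta-2 microglobulin. Interferon-gamma is known to raise the whole set and to exchange the catalytic proteasome subunits for inducible ones, and Nlrc5 acts at class I promoters as Ciita does at class II promoters. In the gut the epithelium expresses class I next to a dense population of intraepithelial T cells.

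The cells carry the label small intestinal stem cells and were profiled by bulk RNA-seq, with 1 library of circBtnl1 wild-type and 1 library of circBtnl1 knockout genotype. circBtnl1 is a circular RNA bearing the name of Btnl1, a butyrophilin-like gene that lies inside the mouse MHC region. The strain, age and sex of the mice, the number pooled, how the cells were isolated and how the knockout was made were not given in the sources used here. With 1 library per genotype no test is possible and no value has a replicate error, so each statement below compares 2 libraries and not 2 genotypes.

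The table gives no counts, and depth was estimated from the steps between its low values at about 20750000 reads for the wild-type library (19250000 to 23000000) and 17000000 for the knockout library (16000000 to 20500000). At that estimated depth the lowest member, Nlrc5, would rest on about 1156 and 254 reads, and every other member on at least about 658. Btnl1 had 59.3 TPM in wild-type and 65.4 TPM in knockout RNA, which does not check the genotype, since gene values do not separate a circular from a linear RNA. The 8 stem cell markers listed were low in both libraries, summing to 57.1 TPM in wild-type and 51.6 TPM in knockout RNA. Lgr5 had 3.13 and 1.55 TPM, Olfm4 had 0.2 TPM and was then listed at 0, and Axin2, the highest, had 16.9 and 19.25 TPM. Of 6 measured, 3 were lower in the knockout library, 1 of them at least 2-fold, and 1 was 2-fold higher. Over all measured genes 5.25% were at least 2-fold lower and 23.1% higher. Krt20 of differentiated epithelium had 2065 and 919 TPM. The 4 Y-linked genes listed summed to 1.42 TPM in wild-type and 22.8 TPM in knockout RNA, so Y-linked RNA differed along with genotype, and the part of either in the results below cannot be told apart. In bulk RNA, fewer cells of a type and less RNA per cell cannot be told apart either.

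Several members share sequence features upstream of their start, read from RefSeq promoters of build GRCm38.p6, which held 8 of the 10. H2-K1 has windows for 2 starts in that table, both inside the annotated span of the gene given below, so its elements lie upstream of those starts but within that span. The windows of H2-K1, H2-D1 and B2m each held the letters of the X2 box, TGACG, followed after exactly 20 bases by those of the Y box, ATTGG, on the gene's own strand. These boxes are known as parts of the module at which RFX, CREB and NF-Y proteins and Nlrc5 assemble. The stretches are shown 5′ to 3′ with X2 and Y in capitals, from chr17:34000359-34000388 (minus strand) for H2-K1, chr17:35262993-35263022 (plus) for H2-D1 and chr2:122147609-122147638 (plus) for B2m.
H2-K1: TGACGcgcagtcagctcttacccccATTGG
H2-D1: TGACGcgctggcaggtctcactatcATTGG
B2m: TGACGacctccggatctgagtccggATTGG
H2-K1 and H2-D1 matched at 23 of the 30 bases, while B2m matched H2-K1 at 13 and H2-D1 at 12. The letters with this exact spacing (either strand) stood in 30 of 32851 promoter windows of 250 bases, or 0.091%. At any spacing of 10 to 30 bases they stood in 211 windows, or 0.642%.

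H2-K1 and H2-D1 also held the same palindromic element, whose sequence is known as a site of NF-kappaB. All its letters are shown in capitals with its flanks, from chr17:34000443-34000463 (minus) and chr17:35262918-35262938 (plus), because the 21 bases are identical in both genes.
H2-K1: gggctGGGGATTCCCCatctc
H2-D1: gggctGGGGATTCCCCatctc
This element was found in 10 of the 32851 windows (0.03%, either strand).

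B2m held a match to the interferon-stimulated response element, searched as GAAA, any 2 bases and GAAA. The match lay on the gene's own strand, upstream of the X2 and Y boxes. Only these exact letters and those of the palindromic element above were searched, so looser forms of either were not looked for in any member. Capitals mark the element and both boxes in chr2:122147543-122147643 (plus).
B2m: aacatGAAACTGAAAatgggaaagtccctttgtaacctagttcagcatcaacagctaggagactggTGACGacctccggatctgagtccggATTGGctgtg
Of all windows, 2.98% held this element on either strand.

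Psmb9 and Tap1 are transcribed away from each other, with 225 bases between their annotated starts, so they share the same upstream DNA. It is shown whole on the strand of Tap1 (chr17:34187331-34187555). Capitals mark the letters of a Y box, read on the strand of Psmb9, and those of an X2 box.
Psmb9-Tap1: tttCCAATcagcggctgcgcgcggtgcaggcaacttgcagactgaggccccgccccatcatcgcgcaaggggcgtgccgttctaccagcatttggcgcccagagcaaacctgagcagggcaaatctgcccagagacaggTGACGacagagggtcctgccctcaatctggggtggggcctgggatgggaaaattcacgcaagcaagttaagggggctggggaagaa
In this stretch the Y and X2 letters lay on opposite strands and far apart, unlike in H2-K1, H2-D1 and B2m. Alone, the Y letters stood in 33.8% of all windows and the X2 letters in 17.8%, on either strand.

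Psmb8 held a match to the gamma-activated site, TTCNNNGAA, an element known from promoters that respond to interferon-gamma. It is shown in capitals in chr17:34198048-34198156 (plus), beside the match in Irf1, an interferon-induced factor, in chr11:53769914-53769943 (plus).
Psmb8: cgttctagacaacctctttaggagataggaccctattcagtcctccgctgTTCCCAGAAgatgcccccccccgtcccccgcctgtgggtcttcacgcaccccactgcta
Irf1: acagcctgatTTCCCCGAAatgatgaggcc
This short element stood in 7.02% of windows on either strand.

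All 10 members were lower in the knockout library. Each was past 2-fold, where 5.25% of the 12666 measured genes were lower by that much and 23.1% higher. After trimmed mean scaling 10.3% were lower by that much, and relative to the median gene 10.2%. The ratios, given as log2((knockout TPM + 0.1)/(wild-type TPM + 0.1)), ran from -1.33 for B2m to -3.05 for Psmb8 with a median of -1.60. The median of all measured genes was 0.39, so relative to it the members' median was -1.99. Above a mean level of 50 TPM, where 9 of the members lie, 6.89% were at least 2-fold lower. Summed, the 10 genes took 1.19% of the wild-type library's TPM and 0.416% of the knockout library's.

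**Figure D1:**
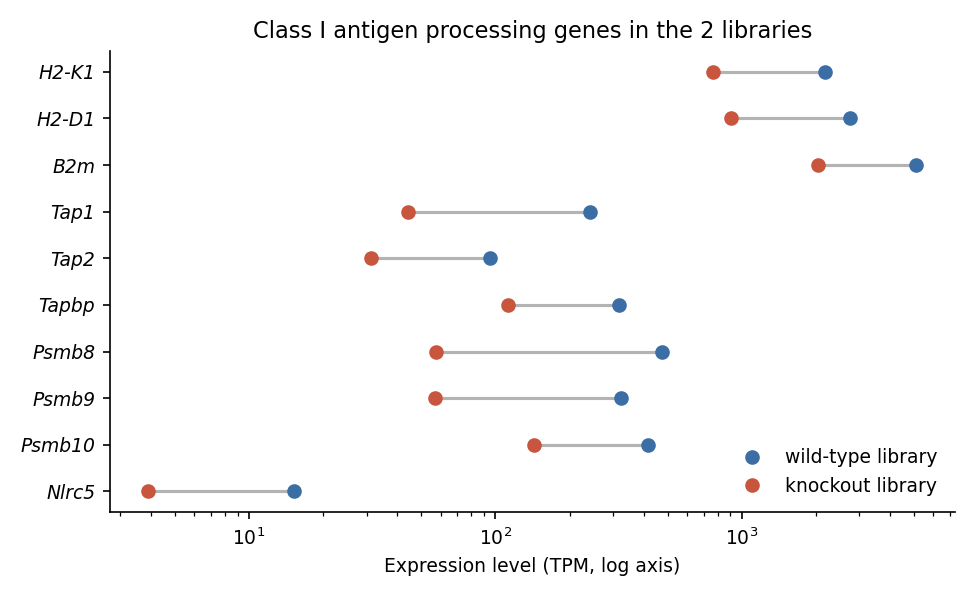
Level of each class I antigen processing gene in the wild-type (blue) and knockout (red) library, in TPM on a log axis, with 1 library per genotype and no error. The knockout point lies to the left of the wild-type point for all 10 genes, by the widest gap for Psmb8 (476 against 57.4 TPM).

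The classical heavy chains were abundant in both libraries. H2-K1 (Entrez gene 14972, chromosome 17, 33996012 to 34000619, GRCm38) had 2170.3 TPM in wild-type and 768 TPM in knockout RNA, 2.83-fold lower. H2-D1 (14964, chromosome 17, 35263094 to 35267497) had 2750.0 and 906 TPM, 3.03-fold lower. H2-K1 and H2-D1 lie on either side of Btnl1, and their balance was close in both libraries, with 0.789 H2-K1 transcripts per H2-D1 transcript in wild-type and 0.848 in knockout RNA. Of the 50-base windows of the H2-K1 transcript 8.79% also occurred in other genes, and of H2-D1 14.3%, so part of their reads could have been assigned among class I genes by the authors' estimation.

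B2m, which encodes the light chain shared by all class I molecules, was the most abundant member in both libraries and had the ratio nearest to 0. Located on chromosome 2 (Entrez gene 12010, 122147687 to 122153082), it had 5116 TPM in wild-type and 2037 TPM in knockout RNA, 2.51-fold lower. By level it ranked 12 among all genes in wild-type and 51 in knockout RNA. Classical heavy chain RNA amounted to 0.962 transcripts per B2m transcript in wild-type and 0.822 in knockout RNA, a ratio that does not depend on scaling between libraries. With the other listed H2-Q, H2-T, H2-M and H2-Bl heavy chains added, it was 1.27 and 1.15.

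The partner chains of the peptide transporter were lower to different degrees. Tap1 (Entrez gene 21354, chromosome 17, 34187556 to 34197225) had 241 TPM in wild-type and 44.25 TPM in knockout RNA, 5.46-fold lower. Tap2 (21355, chromosome 17, 34204479 to 34216321) had 95.3 and 31.3 TPM, 3.04-fold lower. The transporter needs both proteins, and the RNA ratio of Tap1 to Tap2 was 2.53 in wild-type and 1.41 in knockout RNA.

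Tapasin, the Tapbp product, bridges the transporter to empty class I molecules and favours well-fitting peptides. Tapbp (Entrez gene 21356, chromosome 17, 33919478 to 33929290) had 317 TPM in wild-type and 112 TPM in knockout RNA, 2.83-fold lower, close to H2-K1. Tapbpl, a tapasin relative that edits peptides outside the loading complex, was lower to a like degree, at 80.8 and 30.1 TPM. Among the general chaperones of the complex, Calr (calreticulin) had 1795 and 1117 TPM, and Canx (calnexin) 127 and 176 TPM. Of 6 such loading partners Tapbpl alone was at least 2-fold lower as deposited, none (0) was 2-fold higher, and their median log2 ratio was -0.33 (0.47 relative to epithelial markers). Relative to the median gene Calr was past 2-fold too (-1.07), making 2 of 6. In that setting 10.2% of measured genes were 2-fold lower, and 5.25% as deposited. Relative to epithelial markers none (0) was 2-fold lower and 1 was higher, where 1.9% of measured genes were lower and 59.8% higher.

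The immunoproteasome subunits included the lowest ratios of the set. Psmb8 (Entrez gene 16913, chromosome 17, 34198195 to 34201454) had 476 TPM in wild-type and 57.4 TPM in knockout RNA, 8.29-fold lower, a ratio below which 0.687% of measured genes lay. Psmb9 (16912, chromosome 17, 34182030 to 34187330) had 325 and 56.8 TPM, 5.71-fold lower, beside 5.46-fold for Tap1. Psmb10 (19171, chromosome 8, 105935728 to 105938392), which lies outside the MHC, had 416 and 143 TPM, 2.91-fold lower.

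Their constitutive counterparts did not differ in this way. Psmb5, which Psmb8 replaces, had 170.2 TPM in wild-type and 174 TPM in knockout RNA, Psmb6, which Psmb9 replaces, had 181 and 161 TPM, and Psmb7, which Psmb10 replaces, had 179 and 238.5 TPM. The order within each pair was therefore inverted between the libraries. Psmb8 RNA made up 73.7% of the Psmb8 and Psmb5 sum in wild-type and 24.8% in knockout RNA. Psmb9 made up 64.1% and 26.1% of its pair, and Psmb10 69.9% and 37.5%. These shares are taken within a library and do not move with scaling, but Psmb5 shares 57.1% of its 50-base windows with other annotated genes, so its value is uncertain.

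**Figure D2:**
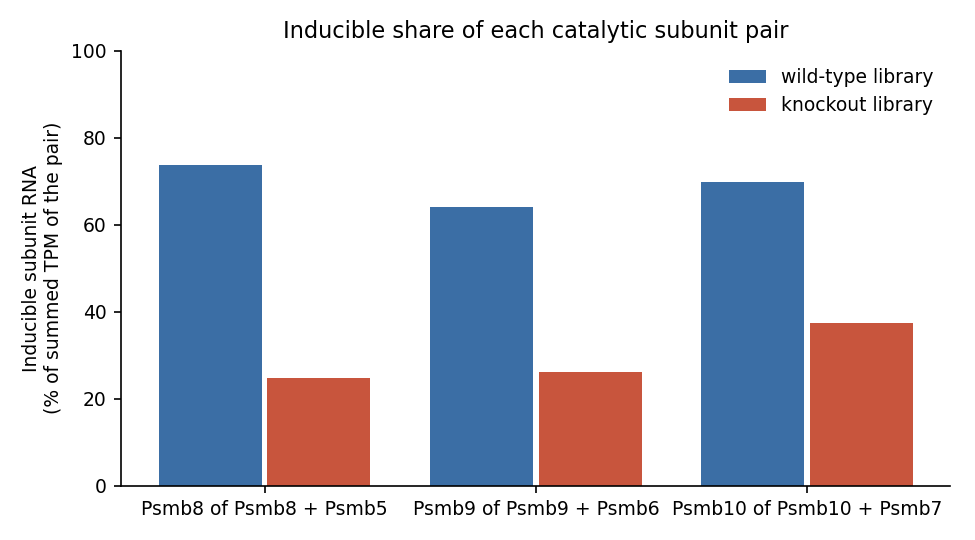
Share of the inducible subunit in the summed TPM of each inducible and constitutive pair (percent, bars from 0), in the wild-type (blue) and knockout (red) library, with 1 library each. Each inducible subunit holds over 60% of its pair in the wild-type and under 40% in the knockout library.

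The barrel subunits common to both proteasome types lay within 2-fold. Of 11 such subunits none (0) was 2-fold higher or lower as deposited. Relative to epithelial markers 5 of the 11 were 2-fold higher, where 59.8% of all measured genes were. The subunits' median log2 ratio was -0.00 (-0.39 relative to the median gene and 0.80 relative to epithelial markers). Their range ran from -0.21 (Psma5) to 0.67 (Psma3). Psmb3, the most abundant, had 346 TPM in wild-type and 324 TPM in knockout RNA. Among activators, the interferon-inducible pair that caps the immunoproteasome was lower, Psme1 at 547 and 226 TPM and Psme2 at 599 and 302 TPM, with log2 ratios of -1.28 and -0.99. Of 5 activator and assembly genes Psme1 alone was past 2-fold as deposited, and Psme2 joined it relative to the median gene. In these settings 5.25% and 10.2% of measured genes were 2-fold lower. Relative to epithelial markers none (0) of the 5 was 2-fold lower and 2 were higher, against 59.8% of measured genes higher. Psme3, a nuclear activator outside class I processing, had 119 and 182 TPM. A near copy, Psme2b, shares 59.3% of the Psme2 windows, so the Psme2 value is uncertain. Trimming peptidases showed no common direction, since Lap3, which interferon-gamma induces, had 135 and 75.8 TPM and Tpp2 had 21.6 and 39.1 TPM, and none (0) of 6 passed 2-fold (median -0.22, or 0.57 relative to epithelial markers). Relative to the median gene 1 of the 6, Lap3, was 2-fold lower (-1.23), where 10.2% of measured genes were. Relative to epithelial markers 2 of the 6 were 2-fold higher, against 59.8% of measured genes.

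Nlrc5 was the member with the lowest level in both libraries. Nlrc5 (Entrez gene 434341, chromosome 8, 94434335 to 94527272) had 15.2 TPM in wild-type and 3.9 TPM in knockout RNA, 3.90-fold lower. Proteins that Nlrc5 is known to work with at the X2 and Y boxes had other ratios: Rfx5 had 8.37 and 8.79 TPM, and Nfyb, Creb1 and Atf1 had log2 ratios of 1.03, 1.11 and 1.02. These 3 lay under 2-fold relative to the median gene, a setting in which none (0) of the 12 promoter factors was 2-fold higher. Of the 12, 4 had ratios below 0 as deposited, and 1 of these, Irf1, was at least 2-fold lower. Over all measured genes 5.25% were 2-fold lower as deposited and 23.1% higher. Irf1 had 334 and 129 TPM, a log2 ratio of -1.37 (-0.58 relative to epithelial markers). The list's median was 0.19 (-0.20 relative to the median gene).

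Genes of interferon-gamma signalling stood partly with the members. Socs1, an induced inhibitor of cytokine signalling, had 49.6 TPM in wild-type and 15.96 TPM in knockout RNA. Of the receptor genes, Ifngr1 had 262 and 158 TPM, within 2-fold as deposited but past it relative to the median gene (-1.12), and Ifngr2 had 159 and 163 TPM. Of 6 measured genes 2 were at least 2-fold lower and none (0) higher, with a median log2 ratio of -0.54 (0.26 relative to epithelial markers). The count lower was 3 relative to the median gene and 0 relative to epithelial markers. Over all measured genes 5.25% were 2-fold lower as deposited, 10.2% relative to the median gene and 1.9% relative to epithelial markers. Ifng itself lay below the floor, at 0.18 and 0.1 TPM.

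Other class I heavy chains were split. Of 18 listed, 17 were in the table, 15 were measured, and 7 were at least 2-fold lower with none (0) 2-fold higher (median -0.80), where 5.25% of all measured genes were lower and 23.1% higher. Relative to epithelial markers 4 were 2-fold lower and 4 higher, with a median of -0.0069. In that setting 1.9% of all measured genes were 2-fold lower and 59.8% higher. The Qa-2 genes H2-Q6, H2-Q7 and H2-Q9 had the lowest ratios, at 86.1 and 11.1, 132 and 9.45, and 100.6 and 7.39 TPM, whereas the fourth, H2-Q8, had 4.52 and 3.84 TPM. These are near copies, with 34.9% of H2-Q7 windows found in other genes, so the split among them is uncertain, and summed they had 323 and 31.8 TPM, 10.2-fold lower. H2-Q4, H2-Q10 and H2-Q1 had log2 ratios of -1.61, -1.26 and -1.01. H2-T23, the most abundant and a ligand of NK cell receptors (Qa-1), had 547 and 314 TPM.

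The T region members that intestinal lymphocytes recognise did not share a direction. H2-T3, the thymus leukemia antigen known to bind CD8 alpha homodimers of intraepithelial lymphocytes, had 25.2 TPM in wild-type and 40.4 TPM in knockout RNA. H2-T22 had 224 and 61 TPM and H2-T10 had 4.75 and 9.41 TPM, both known as ligands of gamma-delta T cells. Of the H2-T22 windows 37.9% also occur in H2-T10, so their opposite ratios (-1.87 and 0.97) are uncertain. Among class I-like genes, which present no peptide to CD8+ T cells, Cd1d1 was lower (6.23 and 2.89 TPM), Azgp1 higher (1.07 and 5.51 TPM), and Fcgrt, the neonatal Fc receptor and also a partner of B2m, had 35.6 and 44.7 TPM.

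**Figure D3:**
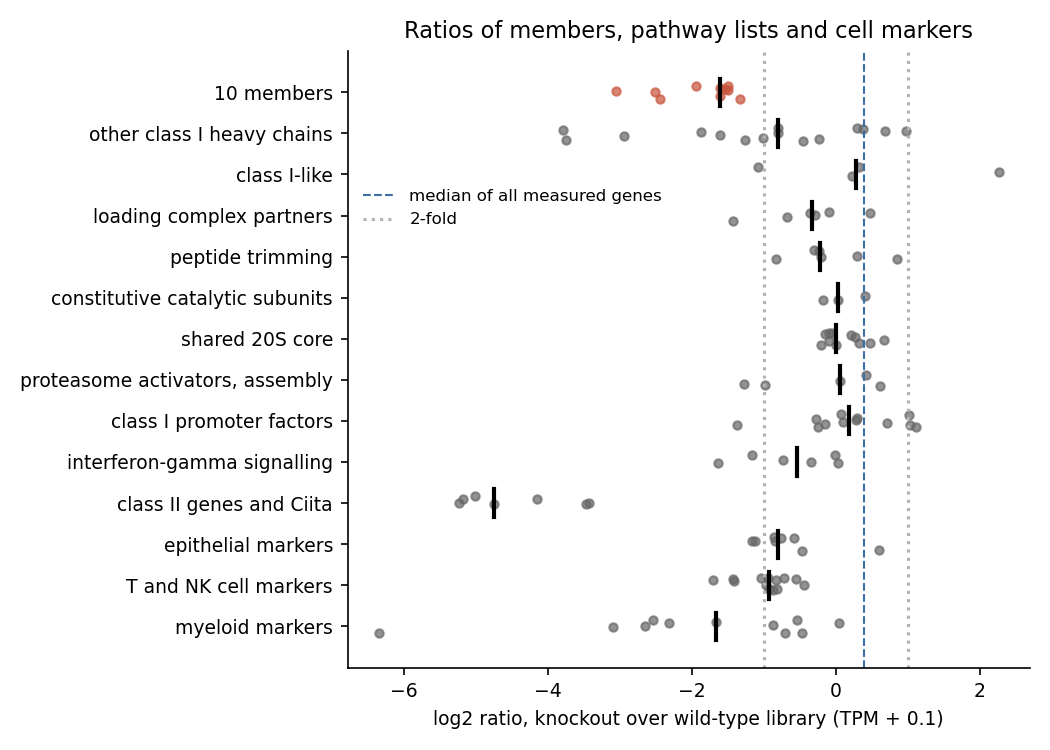
Log2 ratio of each measured gene (points) in the 10 members (red), the other class I pathway lists and cell markers (grey), with the list median as a black bar, the median of all measured genes as a dashed line and 2-fold as dotted lines. The members lie between -3.05 and -1.33, the shared proteasome core around 0, and the class II genes lower than the members.

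Genes of the class II pathway, which also respond to interferon-gamma, had lower ratios than the members. All 7 measured, Ciita among them, were at least 2-fold lower, where 5.25% of all measured genes were. Their median log2 ratio was -4.74, from -5.24 for H2-Aa to -3.42 for H2-DMa, with Cd74, H2-Eb1, H2-Ab1, H2-DMb1 and Ciita between. Ciita had 8.73 and 0.7 TPM, next to 15.2 and 3.9 TPM for its class I relative Nlrc5.

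The members' neighbours on the chromosome were examined next, since 7 members and Btnl1 share chromosome 17. The 7 stretch from Tapbp at -457 kb to H2-D1 at 884 kb from the centre of Btnl1, and the cluster of Psmb9, Tap1, Psmb8 and Tap2 lies at -197 to -171 kb. The 3 members on other chromosomes, B2m, Psmb10 and Nlrc5, had log2 ratios of -1.33, -1.54 and -1.94, beside -3.05 to -1.50 for the 7 on chromosome 17. Within 100 kb of the members, 39 other measured genes that belong to no list had a median log2 ratio of 0.32. Over all measured genes it was 0.39. Past 2-fold, 5 of the 39 were higher and 2 lower, where 23.1% of all measured genes were higher and 5.25% lower. The 2 lower were the cytokine genes Tnf (11.9 and 1.76 TPM) and Ltb (1.69 and 0.64 TPM) near H2-D1. The closest to Tapbp, Zbtb22 and Rgl2, had 40.01 and 32.9 TPM and 17.8 and 26.9 TPM. Brd2, which lies among the class II genes, had 90 and 129.6 TPM.

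**Figure D4:**
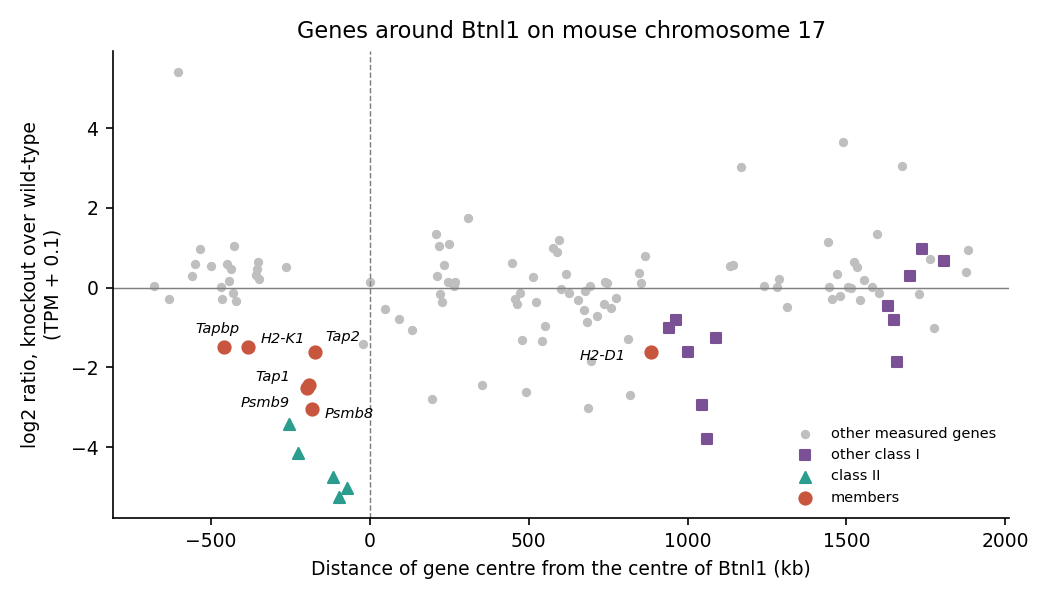
Log2 ratio of measured genes on chromosome 17 against the distance of the gene's centre from the centre of Btnl1 (kb, dashed line at 0), for members (red), other class I genes (purple), class II genes (green) and all others (grey). The members and class II genes lie below -1, and H2-D1 at 884 kb lies as low as Tap2 at -171 kb. Most grey points beside them lie near 0. Between Btnl1 and H2-D1 some grey points lie below -1 (lowest Ly6g6c at -3.03, also Notch4 at -2.78 and C4b at -2.45). Some lie above 1 (highest Tnxb at 1.74). Beside Btnl1, the grey points of Btnl2, BC051142, Btnl4 and Btnl6 lie at -1.41, -0.53, -0.77 and -1.07.

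Other genes with the same promoter letters were set beside the 10133 measured genes with a promoter window, of which 4.66% were at least 2-fold lower and 2308 genes 2-fold higher, as a description and not as evidence of a bound site. Of 20 measured genes with the X2 and Y letters 20 bases apart, 3 were at least 2-fold lower, and these were H2-D1, H2-K1 and B2m, while 4 were 2-fold higher and the median log2 ratio was -0.07. H2-M3, also a class I gene with these letters, had 6.45 and 8.41 TPM. The NF-kappaB letters stood upstream of 6 measured genes, of which H2-Q6, H2-D1, H2-K1 and Zfp385b were at least 2-fold lower and Atg16l2 2-fold higher. Of 325 measured genes with the interferon-stimulated element 9.23% were at least 2-fold lower and 67 genes 2-fold higher. Of 726 with TTCNNNGAA 6.89% were lower and 189 genes higher. The shares lower were 5.8% with X2 and Y at 10 to 30 bases, 4.24% with Y and 2.92% with X2, so the elements did not share a direction against the 4.66%.

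Leukocyte and erythroid markers were lower together with the members, as were most epithelial markers. Fibroblast and muscle markers were split and endothelial markers were not lower. The measured T and NK cell markers had a median log2 ratio of -0.93, next to -0.80 for the epithelial markers. Among the 15 T and NK cell markers found, 13 were measured. All 13 had ratios below 0 and 4 were at least 2-fold lower, where 5.25% of all measured genes were lower by that much. The 15 summed to 113.5 TPM in wild-type and 57.7 TPM in knockout RNA, with Klre1 listed at 0 in the wild-type library. The pan-leukocyte gene Ptprc had 3.49 and 1.65 TPM, against 5116 and 2037 TPM for B2m. Of 13 myeloid markers 11 were measured and 6 were at least 2-fold lower, the 13 summed to 52.8 and 18.6 TPM, and Adgre1 in the wild-type and S100a9 in the knockout library were listed at 0. The 6 erythroid genes summed to 277 and 11.9 TPM (Alas2 listed at 0 in the knockout library), and the 6 B and plasma cell genes to 2.61 and 1.08 TPM (Mzb1 likewise), all 6 below the floor. The 10 fibroblast and muscle genes summed to 40.6 and 125.7 TPM, of which Col1a2 alone had 3.76 and 64.4 TPM. Of 7 measured, 3 were at least 2-fold higher (Col1a2, Pdgfrb and Dcn) and 2 lower (Acta2 and Des). Over all measured genes 23.1% were higher by that much and 5.25% lower. The 6 endothelial genes summed to 2.33 and 2.65 TPM. The part of these cells in the class I values was not tested.

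Of 8 epithelial markers 7 had ratios below 0, and they bear on the count of members past 2-fold. The 8 markers summed to 25480 TPM in wild-type and 14632 TPM in knockout RNA. As deposited 2 of them (Krt20 and Vil1) were at least 2-fold lower, where 5.25% of measured genes were. The 8 had a median log2 ratio of -0.80. Cdx2, a transcription factor of intestinal identity, went the other way at 146 and 222 TPM. Relative to that median all 10 members remained below 0, from -0.53 for B2m to -2.25 for Psmb8, but 4 of 10 (Psmb8, Psmb9, Tap1 and Nlrc5) were at least 2-fold lower, where 1.9% of measured genes were 2-fold lower and 59.8% 2-fold higher. The part of the epithelial share of the RNA in the members' ratios was not tested.

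**Figure D5:**
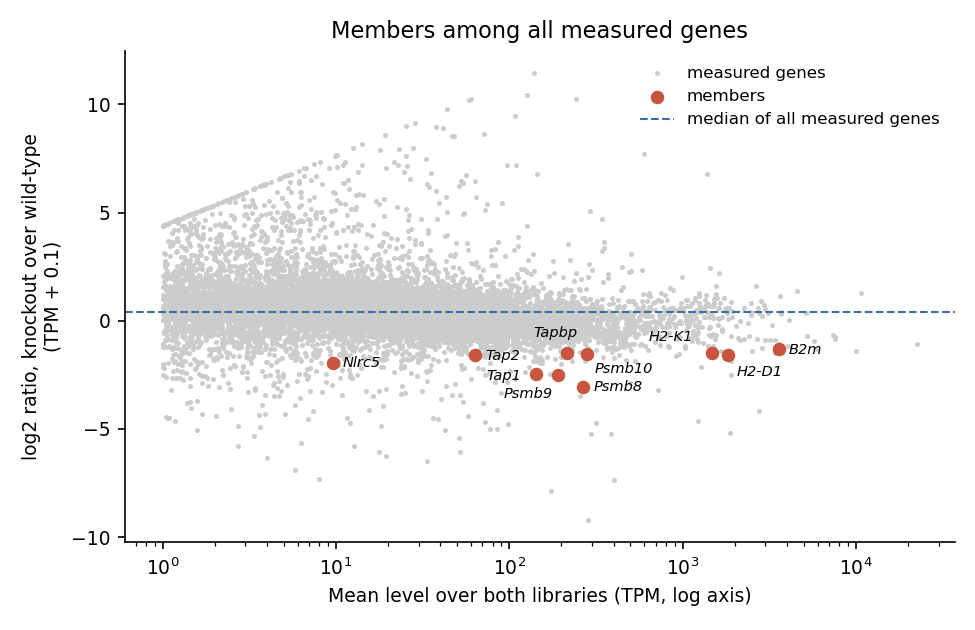
Log2 ratio against the mean level over both libraries (TPM, log axis) for 12666 measured genes (grey) and the 10 members (red), with the median of all measured genes (0.39) as a dashed line. The members span means from 9.56 (Nlrc5) to 3576 TPM (B2m) and lie below most genes of like level.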

How the data were processed

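RNA-seq of 1 wild-type and 1 knockout library was read from a deposited table of genes. The authors deposited TPM and FPKM values, per the file headers. The submitters' processing notes name mm10, Bowtie2, RSEM and DESeq2 with no role, order or version. Of 18068 lines 1 had no values and was left out, and no value column was unused (0). Ratios used TPM with a pseudocount of 0.1, the deposited scaling and a floor of 1 TPM on the mean of both libraries. On this log2 scale the difference of low genes is understated. Fold values divide TPM by TPM with no pseudocount. A 2-fold difference is a rule of size, with no test, since 1 library per group leaves no residual spread.

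The members and lists were chosen with earlier results of these data known. Named genes are all members and, from each other list, the highest and lowest ratio, the most abundant gene and any gene past 2-fold. A gene that this rule names in the interferon-gamma list is not reported here. Rfx5, H2-Q8, H2-M3, H2-T3, the marker genes and the neighbours of members were named after their values were seen, as were the motifs and the sequences shown. H2-Q8 and H2-Q9 have no position in the plot of chromosome 17. Coordinates and promoters came from RefSeq GRCm38.p6, and shared 50-base windows from GENCODE M21 transcripts. Depth was estimated by the number of reads at which low FPKM values of genes with 1 transcript come closest to whole reads; 59.2% and 56.3% of values lay within 0.15 of one, so reads were not taken as recovered and no interval was computed. The scripts, run with Python 3.11.15 and pandas 2.3.3, were tested on simulated data.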

Additional observations from a re-analysis of the deposited data

How the results depend on the processing

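No paired analysis was possible because each genotype had 1 library. Leaving out a replicate was not possible for the same reason. All 10 members were at least 2-fold lower with FPKM, relative to the median gene (10.2% of measured genes), and under trimmed mean (10.3%) and upper quartile scaling. They were so too with pseudocounts of 1 and 0.01, and the ratio nearest to 0 was -1.27 (B2m, FPKM). FPKM and these scalings move all ratios by nearly the same amount, so they are not separate checks of the members. Scaling to the median epithelial marker, an alternative added after seeing the data, left 4 members past 2-fold and a median of -0.81. By construction it raised every list by 0.80: the medians became 0.83 for constitutive catalytic subunits, 0.80 for the shared core, 0.86 for activators, 0.47 for loading partners, 0.57 for trimming, -0.0069 for other class I heavy chains, 1.07 for class I-like genes, 0.98 for promoter factors, 0.26 for interferon-gamma signalling and -3.94 for class II. With no floor the class II median was -3.80, because 3 low genes entered. The proteasome shares and the chain ratio were the same from FPKM by construction, since TPM and FPKM differ by a constant factor within a library. With no spread to set it against, a value was taken as moved when it changed by more than 1.5 times. By the depth estimate, in which reads were not taken as recovered, each member would rest on at least about 254 reads. Genes near 1 TPM rest on few reads.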
